A study of Mus musculus with 25 samples.

Results

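The 10 antioxidant defence genes Sod1, Sod2, Cat, Gpx1, Prdx1, Prdx5, Txnrd1, Gclm, Srxn1 and Nfe2l2 were followed across every genotype of a study of bone marrow neutrophils. They were chosen by name, with earlier results of these data known, although no measured value entered the rule. All 10 had a row in the count table of 35741 gene symbols, and all 10 were among the 16206 genes that passed the low-count filter and were tested.

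These genes belong to linked systems that remove reactive oxygen. Superoxide dismutases turn superoxide, which the phagocyte oxidase of neutrophils makes in large amounts, into hydrogen peroxide. Catalase, glutathione peroxidases and peroxiredoxins then reduce the peroxide. Glutathione, whose synthesis is controlled by glutamate-cysteine ligase, and the thioredoxin system supply the electrons. The transcription factor Nrf2, encoded by Nfe2l2, is held low by Keap1 and, on oxidative stress, switches on many of these genes through antioxidant response elements.

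Neutrophils, labelled as such after a Percoll gradient, came from female C57BL/6J mice aged 6 to 13 weeks, and messenger RNA was sequenced in bulk in 25 libraries. The study asked how the phosphatase Ptpn6 (SHP-1) limits inflammation that runs through caspase-8 (Casp8) or through Ripk3 and Mlkl, the kinase and effector of necroptosis. There were 3 libraries each of wild type, Ripk3 KO (Ripk3-/-), Mlkl KO (Mlkl-/-), Ripk3 KO Ptpn6 cKO and double KO Ptpn6 cKO, where double KO stands for Ripk3-/- Mlkl-/- (written out in the plots). There were 2 each of double KO, Mlkl KO Ptpn6 cKO, Mlkl KO Casp8 cKO Ptpn6 cKO and double KO Casp8 cKO Ptpn6 cKO. Here cKO stands for a deletion restricted to neutrophils (the labels' PMN). The labels do not name what drives it. Casp8 cKO Ptpn6 cKO had 1 library, the only one labelled as inflamed, and was described without a test. A further library whose labels conflict (a title of double KO and a genotype of Mlkl KO Ptpn6 cKO) was placed in no group.

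No group combined Ptpn6 deletion with intact Ripk3, Mlkl and Casp8, so every replicated Ptpn6 deletion was read in mice that also lacked Ripk3, Mlkl or both. Each library totalled between 21598177 and 23187676 estimated counts. Ptpn6 itself stood at 490 to 707 CPM (counts scaled to effective library size) in the libraries assigned to groups with Ptpn6 intact. It stood at 120 to 314 CPM in those with the deletion. The neutrophil markers summed to 65939 to 153873 CPM in the assigned libraries. Markers of red cell precursors (681 to 10338 CPM) and of B cells (418 to 1877 CPM) were also present. In such bulk samples, fewer cells of a type and less RNA per cell cannot be told apart. Nothing in the labels says that replicates came from separate animals, so p-values measure the spread between these samples.

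Gclm and Txnrd1 were the 2 members that changed in any tested comparison, both with Ptpn6 deletion in Mlkl KO. Gclm (chr3:122245557-122270732, plus strand, GRCm38) encodes the modifier subunit of glutamate-cysteine ligase. Txnrd1 (chr10:82833951-82897712, plus strand) encodes the cytosolic thioredoxin reductase, which returns thioredoxin to its reduced form with NADPH. Both are known Nrf2 targets, as are Prdx1, a cytosolic peroxiredoxin, and Srxn1, sulfiredoxin, which repairs over-oxidised peroxiredoxins. Their promoter sequences from RefSeq (GRCm38.p6) are shown because each holds a match to the antioxidant response element core. The core was searched on both strands as TGACNNNGC and TGAGNNNGC. Capitals mark the matches, and each sequence ends before the first annotated transcript of its start region. The Gclm stretch is chr3:122245307-122245486 and that of Txnrd1, at the second of its 3 RefSeq starts, is chr10:82858956-82859178. Those of Prdx1 (chr4:116685349-116685543) and Srxn1 (chr2:152105274-152105515) follow. All 4 are on the plus strand.
Gclm: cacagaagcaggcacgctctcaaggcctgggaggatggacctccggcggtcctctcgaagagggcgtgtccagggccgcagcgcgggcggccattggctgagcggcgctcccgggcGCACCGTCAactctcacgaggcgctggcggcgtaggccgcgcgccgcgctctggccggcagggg
Txnrd1: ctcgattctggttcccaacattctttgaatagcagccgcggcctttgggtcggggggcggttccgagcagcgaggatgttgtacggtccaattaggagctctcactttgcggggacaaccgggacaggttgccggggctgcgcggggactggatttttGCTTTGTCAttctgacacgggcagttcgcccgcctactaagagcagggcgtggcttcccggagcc
Prdx1: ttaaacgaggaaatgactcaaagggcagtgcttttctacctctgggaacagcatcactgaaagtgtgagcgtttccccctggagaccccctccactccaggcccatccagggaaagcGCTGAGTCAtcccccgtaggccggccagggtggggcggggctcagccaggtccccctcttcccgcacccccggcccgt
Srxn1: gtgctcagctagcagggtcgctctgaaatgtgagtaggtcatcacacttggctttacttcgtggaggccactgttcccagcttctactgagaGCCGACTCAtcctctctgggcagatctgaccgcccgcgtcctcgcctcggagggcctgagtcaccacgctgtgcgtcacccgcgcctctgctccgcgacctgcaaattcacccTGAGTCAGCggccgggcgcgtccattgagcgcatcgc

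The match in Gclm (TGACGGTGC on the minus strand) began 134 bases before the start, and that in Txnrd1 (TGACAAAGC, minus strand) 92 bases before it. Prdx1 held TGACTCAGC on the minus strand at 133 bases. Srxn1 held 2 matches of the other form, TGAGTCGGC on the minus strand at 158 bases and TGAGTCAGC on the plus strand at 45 bases. Sod1 and Nfe2l2 had 1 match each, at 56 and 240 bases. All 10 members matched RefSeq promoters, with 12 starts between them, and either form occurred in the 250 bases before 6 of the 12. Among 32851 promoter windows of that length, 10.2% held TGACNNNGC, 14.4% held TGAGNNNGC and 23.01% held either. A match describes the letters and is not evidence of binding.

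Levels differed widely among the genes. Per kilobase of merged exon, wild-type neutrophils held 395 ± 35.7 CPM of Gpx1 (glutathione peroxidase 1) and 318 ± 33.7 CPM of Prdx5, a peroxiredoxin found in mitochondria, peroxisomes and cytosol (SD, n = 3, as for each wild-type level here). Nfe2l2 followed at 53.8 ± 1.65 CPM per kilobase and Cat (catalase) at 15.9 ± 1.12. Prdx1 stood at 8.97 ± 1.43, Gclm at 6.21 ± 0.71, Sod1 at 6.00 ± 0.56 and Txnrd1 at 5.79 ± 0.054 CPM per kilobase. The ranges of Gclm, Sod1 and Txnrd1 overlapped. Sod2, the mitochondrial dismutase, was at 1.61 ± 0.15 and Srxn1 was the lowest at 1.33 ± 0.19 CPM per kilobase, with overlapping ranges. On this scale the 2 most abundant members both reduce peroxides, and the cytosolic and mitochondrial dismutases were among the less abundant ones. The divisor joins all annotated exons of a gene, 3970 bases for Sod1 and 10008 for Sod2 against 1441 for Gpx1. The lengths of the transcripts present in these cells were not used, and the order can depend on them. Undivided, wild-type means were 569 CPM for Gpx1, 680 for Prdx5, 23.8 for Sod1 and 16.1 for Sod2. Srxn1 rested on 57 to 178 estimated counts per library, against at least 13051 for Gpx1.

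Across the 24 assigned libraries, the highest level of a gene was between 1.51 times the lowest, for Sod2, and 3.97 times, for Srxn1. Gclm spanned 3.29-fold. The order of the 9 replicated group means was mostly not resolved. Neighbouring groups had separate mean ± SD ranges in 1 of 8 neighbour pairs for Gclm and 1 of 8 for Txnrd1, and in none of the 8 for each of the other 8 genes. In both cases that gap set the highest group, Mlkl KO Ptpn6 cKO, apart from the next.

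**Figure D1:**
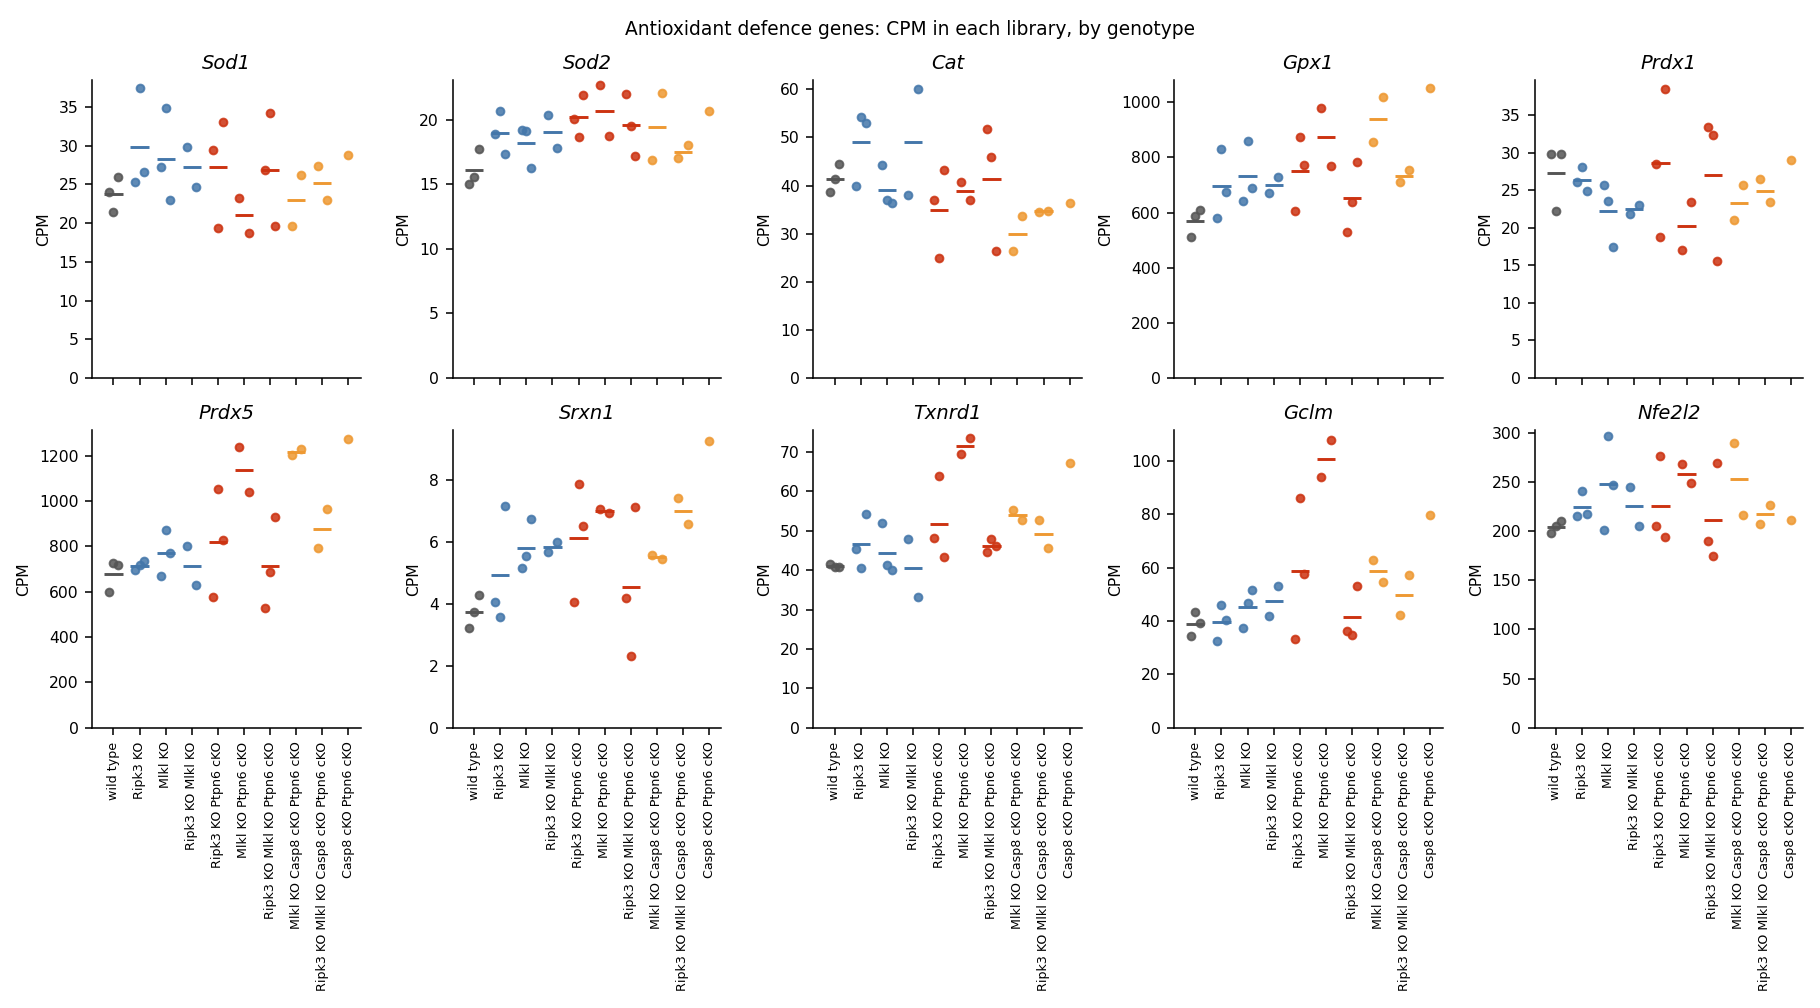
CPM of each of the 10 genes (vertical axis, linear from 0) in each assigned library, by genotype. Points are libraries and bars are group means. Gclm and Txnrd1 stand highest in Mlkl KO Ptpn6 cKO, at 93.8 and 108 CPM and at 69.6 and 73.5 CPM.

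Gclm in wild type was at 34.5, 43.3 and 39.5 CPM, and Ripk3 KO overlapped it at 32.7, 45.9 and 40.2 CPM. Mlkl KO libraries were at 37.5, 46.9 and 51.6 CPM and those of Mlkl KO Ptpn6 cKO at 93.8 and 108 CPM, with no overlap. In Ripk3 KO Ptpn6 cKO the 3 libraries were spread over 33.1, 86.1 and 57.6 CPM, so that 1 was as low as the controls. The double KO libraries (41.9 and 53.1 CPM) overlapped those with Ptpn6 also deleted (36.2, 34.9 and 53.1 CPM). The Casp8-deleted groups lay at 62.9 and 54.8 CPM in the Mlkl KO Ptpn6 cKO background and at 42.3 and 57.1 CPM in the double KO Ptpn6 cKO background.

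Txnrd1 was even across wild type, at 41.5, 40.8 and 40.9 CPM. Mlkl KO libraries were at 52.0, 41.2 and 40.1 CPM, all below the 69.6 and 73.5 CPM of Mlkl KO Ptpn6 cKO. Ripk3 KO (45.4, 40.5 and 54.2 CPM) and Ripk3 KO Ptpn6 cKO (48.1, 63.9 and 43.4 CPM) overlapped. So did double KO (47.9 and 33.1 CPM) and the same mice with Ptpn6 deleted (44.7, 47.8 and 46.0 CPM). In the Ripk3 KO Ptpn6 cKO group the library with the highest Gclm was also the one with the highest Txnrd1.

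Ptpn6 deletion in Mlkl KO raised Gclm 2.22-fold (log2 change 1.15 with SE 0.27, edgeR quasi-likelihood adjusted p = 0.0442, n = 2 against 3) and Txnrd1 1.61-fold (log2 change 0.69 with SE 0.17, edgeR adjusted p = 0.0455). These were 2 of the 10 genes, against 1.51% of all genes tested in this comparison, and 0.987% called higher. The median log2 change of the 10 was 0.22, against -0.04 over all genes, and 7 of the 10 lay above 0, as did 45.8% of all genes. Such a tilt was not particular to this comparison, since 9 of 10 lay above 0 in Ripk3 KO against wild type (median 0.21), 8 in Mlkl KO (0.20) and 8 in double KO (0.22), with 0 called in each. Of all genes, 49.5%, 47% and 46.5% lay above 0 there, and these 3 comparisons share the same 3 wild-type libraries. With Ptpn6 deleted in Mlkl KO, Prdx5 stood at 1238 and 1039 CPM against 669, 871 and 771 CPM, with no overlap. It did not pass (log2 change 0.56 with SE 0.22, edgeR adjusted p = 0.200). Gpx1 (log2 change 0.26), Sod2 (0.19), Srxn1 (0.27) and Nfe2l2 (0.06) did not pass either, nor did Sod1 (-0.43), Prdx1 (-0.14) and Cat (-0.01). The message for Nrf2 stood at 268 and 248 CPM with Ptpn6 deleted and at 201, 296 and 246 CPM without, which overlap.

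The 2 calls rested on few libraries. The number of genes called in this comparison, 244 with all libraries, was 2 without Mlkl KO Ptpn6 cKO replicate 2 and between 4 and 191 without each of the other libraries. With each of the 5 compared libraries left out in turn, neither gene passed, although the log2 change stayed at 1.03 to 1.26 for Gclm (edgeR adjusted p = 0.0786 to 0.448) and at 0.62 to 0.81 for Txnrd1 (edgeR adjusted p = 0.0572 to 0.448).

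Marker levels moved in the same comparison. Summed neutrophil markers were 137820 to 153873 CPM in Mlkl KO Ptpn6 cKO against 89321 to 104432 CPM in Mlkl KO, with 11 of 12 markers above 0 (median log2 change 0.56, none called). Summed B cell markers were 418 to 462 CPM against 617 to 977 CPM, with 1 of 11 tested markers above 0. The 28 interferon response genes were all above 0, with a median log2 change of 1.03 and 8 called higher. Macrophage markers summed to 63.4 to 104 CPM against 86.0 to 223 CPM, with 0 of 11 above 0. Genes of the azurophil granule stage, made early in neutrophil maturation, summed to 653 to 806 CPM against 317 to 529 CPM, with 10 of 11 above 0 (median 0.75, 1 called higher). T and NK cell markers were at 46.4 to 48.7 CPM against 49.1 to 75.5 CPM, with 0 of 12 above 0. Basophil and mast cell markers were at 2228 to 2333 CPM against 1016 to 1606 CPM, with 9 of 9 tested above 0. Of the markers of these 6 cell type and stage lists in the count table, only Tpsab1 and Tpsb2, of mast cells, were at 0 in any of these 5 libraries. With mean neutrophil marker level as a covariate, Gclm had a log2 change of 0.66 (edgeR adjusted p = 0.364) and Txnrd1 of 0.53 (edgeR adjusted p = 0.339). With a B cell covariate the values were 0.96 (edgeR adjusted p = 0.0545) and 0.67 (edgeR adjusted p = 0.0607). Over all 16206 genes, the neutrophil covariate fit called 2 and the B cell covariate fit 239, against 244 without a covariate. Both covariates were chosen after the data were seen. Eosinophil markers also moved in this comparison, with 6 of 9 above 0 (median log2 change 1.06), as did monocyte markers, with 7 of 11 (0.44). None of these markers was called. The part of the interferon, macrophage, azurophil granule, T and NK cell, basophil, eosinophil and monocyte genes in the result was not tested.

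**Figure D2:**
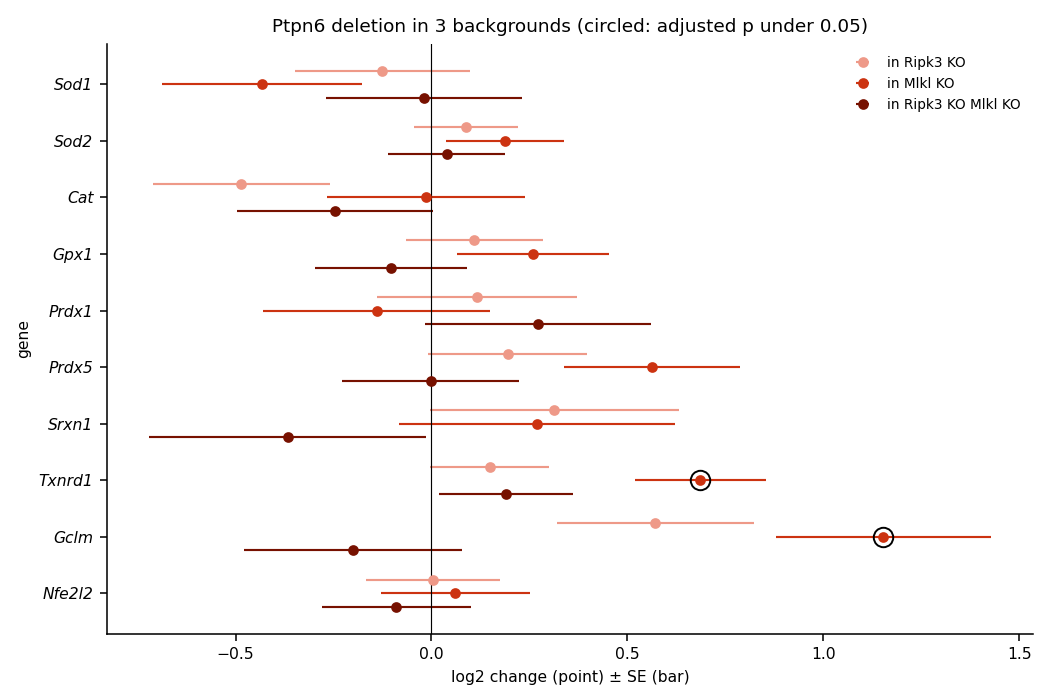
Log2 change (horizontal axis) with SE bars for the 10 genes when Ptpn6 was deleted in Ripk3 KO, Mlkl KO or double KO mice. The circled points, Gclm at 1.15 and Txnrd1 at 0.69 in Mlkl KO, are those with an edgeR adjusted p under 0.05.

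The other backgrounds gave no call among the 10 genes. In Ripk3 KO, Gclm had a log2 change of 0.57 with Ptpn6 deletion (edgeR adjusted p = 0.852, SE 0.25) and Cat of -0.49 (edgeR adjusted p = 0.884, SE 0.23). There 0.0185% of all genes were called, and these 2 were the members with an unadjusted p under 0.05. The background count of 3 genes rose to 156 without Ripk3 KO Ptpn6 cKO replicate 1, whose Ptpn6 stood at 295 CPM against 187 and 201 CPM in the other two, and 0 of the 10 genes were called there either (Gclm at a log2 change of 0.86, edgeR adjusted p = 0.0686). In double KO, where 0.00617% of genes were called, log2 changes ran from -0.37 for Srxn1 to 0.27 for Prdx1, and Gclm was at -0.20 (SE 0.28). Of the 10 genes 0 had an unadjusted p under 0.05 there. In that background, red cell precursor markers were 0 of 13 above 0 (median log2 change -1.22), macrophage markers 0 of 11 (-1.42) and B cell markers 11 of 11 (0.57). Interferon response genes were 1 of 28 above 0 there (-0.47) and cell cycle genes 19 of 20 (0.62). Eosinophil markers were 0 of 9 above 0 (-0.62), and basophil and mast cell markers 8 of 9 tested (0.57). In Ripk3 KO, macrophage markers were 0 of 11 above 0 (-0.89) and cell cycle genes 20 of 20 (0.36). Their part in the values was not tested.

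Whether the Ptpn6 effect differed among the 3 backgrounds was tested directly. Gclm had an unadjusted p of 0.0095 in that edgeR test and an adjusted p of 0.724, and Txnrd1 an adjusted p of 0.770. No gene of the 16206 was called (0%), while 1053 had an unadjusted p under 0.05. A difference of Gclm between Mlkl KO and the other backgrounds was therefore not established. Averaged over the 3 backgrounds, Gclm had a log2 change of 0.51 (edgeR adjusted p = 0.101, SE 0.16) and Txnrd1 of 0.34 (edgeR adjusted p = 0.0730), so that 0 of 10 were called against 1.55% of all genes. The 251 genes behind that share became 7 with replicate 2 of Mlkl KO Ptpn6 cKO left out and 1037 with replicate 1 of Ripk3 KO Ptpn6 cKO left out. DESeq2 called both in that average (adjusted p = 0.0478 for Gclm and 0.0243 for Txnrd1), where it called 669 of 15259 genes in all.

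Casp8 deletion was read in Ptpn6-deleted mice only. In the Mlkl KO background, Casp8 itself stood at 17.5 and 21.7 CPM with the deletion and at 21.3 and 32.8 CPM without, which overlap. In the double KO background it stood at 16.3 and 23.5 CPM against 30.7 to 34.9 CPM, with no overlap. In Mlkl KO Ptpn6 cKO, Gclm was at 62.9 and 54.8 CPM with Casp8 deleted and at 93.8 and 108 CPM without, with no overlap (log2 change -0.78 with SE 0.31, edgeR adjusted p = 0.453). Txnrd1 was at 55.2 and 52.7 CPM against 69.6 and 73.5 CPM (log2 change -0.41, edgeR adjusted p = 0.507). These had unadjusted p of 0.0204 and 0.0408, and 0 of the 10 genes and 0% of all genes were called by edgeR, with 1515 genes at an unadjusted p under 0.05. Prdx5 was at 1203 and 1227 CPM against 1238 and 1039 CPM. This comparison and that of Ptpn6 deletion in Mlkl KO share the 2 Mlkl KO Ptpn6 cKO libraries. Summed interferon response genes there were 3705 to 4112 CPM with Casp8 deleted and 5158 to 6747 CPM without, and their part in the result was not tested. Red cell precursor markers were at 763 to 3438 CPM against 4225 to 6664 CPM, with 0 of 13 above 0 (median -1.39), and monocyte markers at 1190 to 1253 CPM against 1513 to 1550 CPM, with 0 of 11 above 0 (median -0.53). With the red cell precursor covariate, Gclm had a log2 change of -0.99 (edgeR adjusted p = 0.246) and Txnrd1 of -0.62 (edgeR adjusted p = 0.189).

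With Ripk3 also absent, Casp8 deletion gave log2 changes of 0.26 for Gclm (edgeR adjusted p = 0.878, SE 0.28), 0.63 for Srxn1 (edgeR adjusted p = 0.864, SE 0.35) and 0.30 for Prdx5 (edgeR adjusted p = 0.866, SE 0.23). No gene was called by edgeR (0%), and 750 genes had an unadjusted p under 0.05. Red cell precursor markers were 2 of 13 above 0 there (median log2 change -1.11), B cell markers 0 of 11 (-0.74) and azurophil granule stage genes 10 of 11 (1.03). Their part in the values was not tested. The difference between the 2 Casp8 effects was 1.04 on the log2 scale for Gclm (edgeR adjusted p = 0.494, SE 0.41), and 0 of the 10 passed where 0.00617% of all genes did.

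The knockouts of Ripk3, Mlkl or both left all 10 genes below the threshold against wild type. The 3 comparisons share the same 3 wild-type libraries. Background calls were 0.228% for Ripk3 KO, 1.16% for Mlkl KO and 1.04% for double KO (37, 188 and 169 genes; 23 to 38, 38 to 589 and 19 to 85 with a library left out, where leaving out replicate 1 of Mlkl KO gave the 589 and replicate 2 of double KO the 19), and 0 of the 10 genes had an unadjusted p under 0.05 in any of them. Gpx1 was at 511, 588 and 609 CPM in wild type, at 581, 830 and 674 CPM in Ripk3 KO, at 643, 861 and 690 CPM in Mlkl KO and at 670 and 729 CPM in double KO. Its wild-type libraries lay below every Mlkl KO and double KO library, with log2 changes of 0.29, 0.36 and 0.30 (SE 0.17, 0.17 and 0.19; edgeR adjusted p = 0.863, 0.261 and 0.509). Srxn1 was at 3.21 to 4.30 CPM in wild type and at 5.16 to 6.73 CPM in Mlkl KO (log2 change 0.63 with SE 0.32, edgeR adjusted p = 0.286). In the double KO it was at 5.67 and 5.99 CPM (log2 change 0.64 with SE 0.35, edgeR adjusted p = 0.442). Cell cycle genes were 0 of 20 above 0 in Mlkl KO, with a median log2 change of -1.06, and 2 of 20 in double KO (-0.73). Azurophil granule stage genes were 0 of 11 above 0 in both, at 317 to 529 CPM in Mlkl KO and 281 to 484 CPM in double KO against 681 to 811 CPM in wild type. Macrophage markers were 11 of 11 above 0 in both, at 86.0 to 223 and 80.2 to 226 CPM against 77.3 to 109 CPM. In double KO, red cell precursor markers were 13 of 13 above 0 (4922 to 10338 CPM against 2632 to 5868 CPM) and interferon response genes 28 of 28 (3644 to 5521 CPM against 2278 to 2865 CPM). Basophil and mast cell markers were 1 of 9 tested above 0 in double KO (median log2 change -1.75, 3 called lower). In Mlkl KO they were also 1 of 9 (-0.92), with eosinophil markers 2 of 9 (-1.74) and T and NK cell markers 1 of 12 (-0.66). In Ripk3 KO, azurophil granule stage genes were also 0 of 11 above 0 (median log2 change -1.02), at 429 to 514 CPM. Cell cycle genes were 0 of 20 above 0 there (-0.42), and macrophage markers 6 of 11. The part of these lists in the values was not tested.

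**Figure D3:**
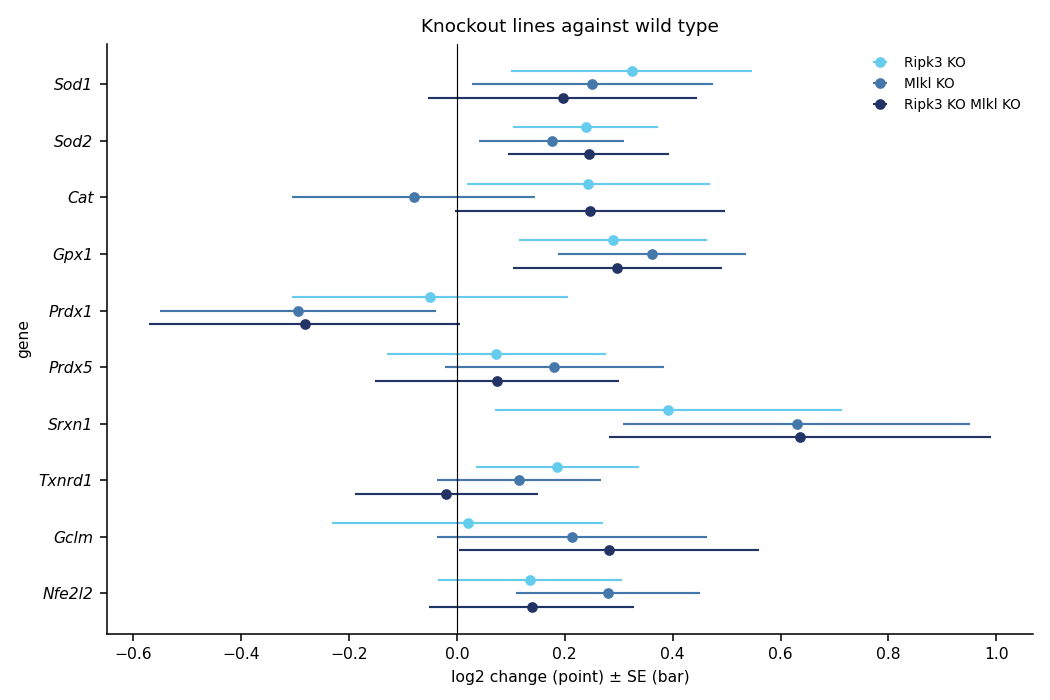
Log2 change (horizontal axis) with SE bars for the 10 genes in Ripk3 KO, Mlkl KO and double KO against the same 3 wild-type libraries. Srxn1 has the highest values, 0.63 in Mlkl KO and 0.64 in the double KO, and none of the points passed edgeR's test.

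Over all 9 replicated groups, the test for any difference called 0 of the 10 genes, against 1.58% of all genes. That share, 256 genes, became 55 genes with replicate 1 of wild type left out and 3315 with replicate 3 of double KO Ptpn6 cKO left out. The smallest adjusted p values were those of Gclm (edgeR adjusted p = 0.0726), Txnrd1 (0.104) and Prdx5 (0.133). The 3 genes that reached an unadjusted p under 0.05 were the same 3.

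The single Casp8 cKO Ptpn6 cKO library, from a mouse with Ripk3 and Mlkl intact and labelled as inflamed, was the highest of all 24 assigned libraries for 3 genes. Gpx1 was at 1053 CPM, Prdx5 at 1275 CPM and Srxn1 at 9.26 CPM. Gclm was at 79.8 CPM, with 3 of the 23 other libraries above it, and Txnrd1 at 67.1 CPM, with 2 above. Nfe2l2 was at 211 CPM, with 13 libraries above. With 1 library, the genotype, the inflammation label and the library cannot be told apart, and there is no replicate check. Its neutrophil markers summed to 144353 CPM, within the range of Mlkl KO Ptpn6 cKO.

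The members followed different marker lists across the 23 libraries of the replicated groups. These are descriptions over libraries that share groups and controls, and values within a library share its depth. Prdx5 tracked the mean neutrophil marker level with a Pearson r of 0.96, and of 0.96 again within groups. Gclm and Gpx1 did so less closely, at 0.76 each (0.68 and 0.66 within groups), and Txnrd1 at 0.65, which fell to 0.38 within groups. Cat tracked the red cell precursor markers (r of 0.78, and 0.76 within groups), and red cells are known to hold much catalase. Within groups it followed B cell markers as closely (r of 0.74) and ran opposite to neutrophil markers (r of -0.75), so the pattern was not particular to red cell genes. Prdx1 tracked cell cycle genes (r of 0.81, and 0.82 within groups), and Nfe2l2 ran opposite to them (r of -0.76). Prdx1 followed B cell markers nearly as closely (r of 0.76, and 0.79 within groups). Within groups, Nfe2l2 had an r of -0.75 with monocyte, -0.71 with B cell and 0.71 with neutrophil markers. Neither pattern was thus particular to cell cycle genes. Among the members, Gpx1 and Prdx5 had an r of 0.86, Prdx5 and Gclm of 0.79, and Prdx1 and Nfe2l2 of -0.75.

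**Figure D4:**
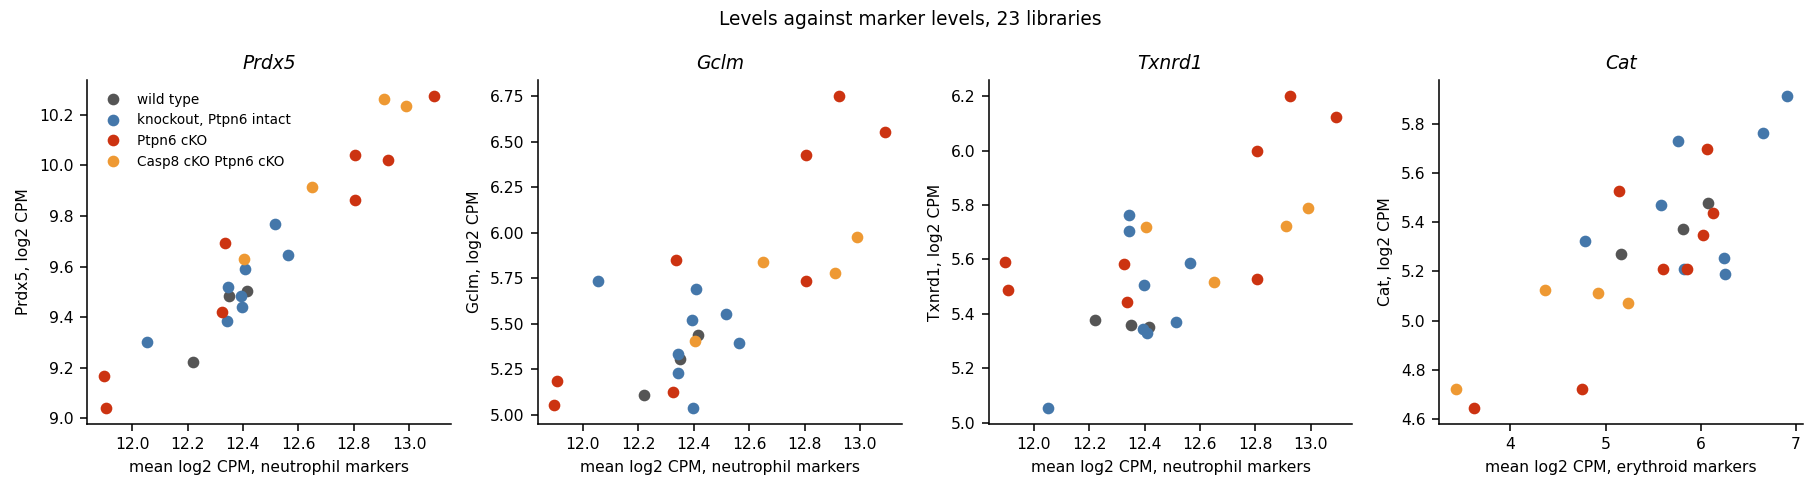
Log2 CPM of Prdx5, Gclm, Txnrd1 and Cat (vertical axes) against the mean log2 CPM of neutrophil markers or, for Cat, of red cell precursor markers (horizontal axes), 1 point per library of the 9 replicated groups. Prdx5 lies closest to a line (r of 0.96), and 3 Ptpn6-deleted libraries stand highest for Gclm and Txnrd1.

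The genes whose log2 CPM was most like that of each of the 4 members with the widest spread of group means were sought among 8525 genes over the same 23 libraries. They were Ube2h (r of 0.95), App (0.95) and Csf2rb (0.94) for Gclm. For Txnrd1 they were B4galt6 (0.84), Cyp51 (0.83) and Bysl (0.83), and for Prdx5 Tpm3 (0.97), Ebi3 (0.97) and Lgals3 (0.97). Those most like Srxn1 were Setd7 (0.85), Khnyn (0.85) and Zfp217 (0.84).

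Other genes of the same systems came from 6 lists with 78 genes, of which 73 were tested. With Ptpn6 deletion in Mlkl KO, 3 were called higher and 1 lower, and the median log2 change of the 73 was 0.10. That is 5.48% of the 73 called, against 1.51% of all genes. In Ripk3 KO and in double KO, 0 of the 73 were called, with 38 and 26 of them above 0. Ggt1, which breaks down extracellular glutathione, rose 6.25-fold (log2 change 2.64 with SE 0.54, edgeR adjusted p = 0.0292), from 18.3, 23.1 and 27.1 CPM to 85.3 and 199.97 CPM. G6pdx, the first enzyme of the pentose phosphate pathway and a source of NADPH, rose 2.47-fold (edgeR adjusted p = 0.0444), from 562, 721 and 731 CPM to 1391 and 1928 CPM. Slc31a1, the copper importer, rose 1.66-fold (edgeR adjusted p = 0.0343). Chac1, which degrades glutathione inside the cell, fell by 2.06 on the log2 scale (edgeR adjusted p = 0.0446), from 10.0 to 11.3 CPM to 1.54 and 3.62 CPM. The groups of each of these 4 genes did not overlap. Since the genes were picked by their calls in this comparison, that adds no support. The share of all genes without overlap was not computed. With each of the 5 libraries left out in turn, Ggt1 and Slc31a1 each passed in 1 fit, and G6pdx and Chac1 passed 0 times. With the neutrophil marker covariate none of the 4 passed (edgeR adjusted p = 0.245 for Ggt1, 0.304 for G6pdx, 0.265 for Slc31a1 and 0.302 for Chac1). That fit called 2 of all 16206 genes, against 244 without the covariate.

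By list, again against 1.51% of all genes called, the glutathione system had 1 of 18 higher and 1 lower, and 9 of 18 were above 0. Gclc, the catalytic partner of Gclm, had a log2 change of -0.38 (edgeR adjusted p = 0.676). The thioredoxin and peroxiredoxin system had 0 of 16 called and 8 above 0, and Txn1, the substrate of Txnrd1, had a log2 change of 0.28 (edgeR adjusted p = 0.491). Of the phagocyte oxidase and peroxidase genes, 8 of 8 tested lay above 0 with a median of 0.40, none called, and Cybb, the oxidase core, was at 0.74 (edgeR adjusted p = 0.130). NADPH supply had 1 of 10 higher, superoxide dismutase and metal supply 1 of 5, and the partners and other targets of Nrf2 0 of 16, with 11 above 0. Among these pairs, 1 subunit of glutamate-cysteine ligase and 1 thioredoxin reductase passed, without a call for the partner or substrate of either.

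**Figure D5:**
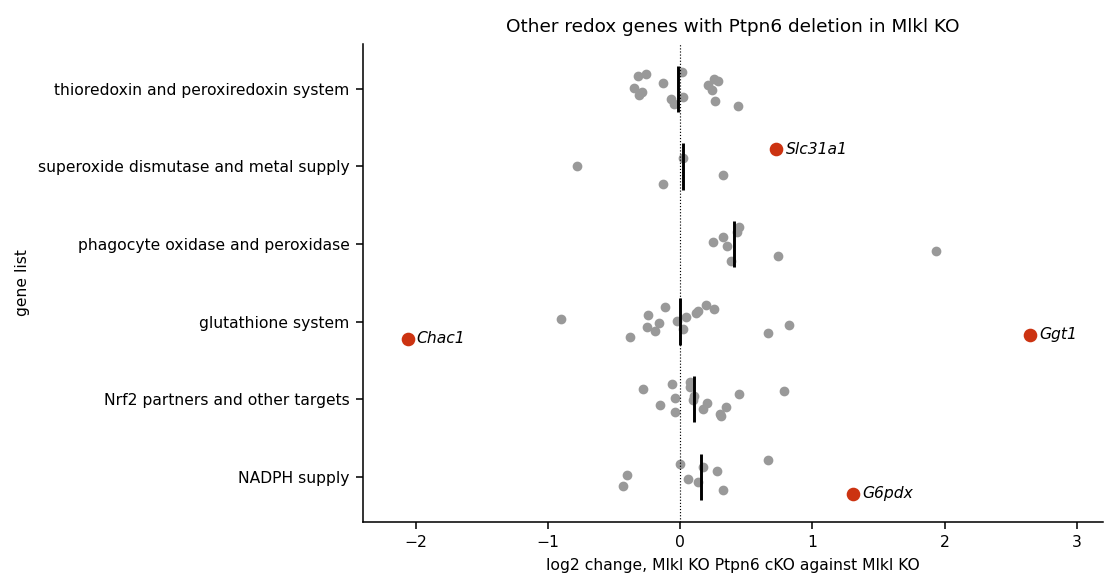
Log2 change (horizontal axis) of the other redox genes with Ptpn6 deletion in Mlkl KO, 1 point per gene and 1 row per list, with the list median as a black bar. The 4 called genes are in red and named, from Chac1 at -2.06 to Ggt1 at 2.64.

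Averaged over the 3 backgrounds, the same 4 genes and Txnip were called, 6.85% of the 73 against 1.55% of all genes. Ggt1 rose 3.31-fold and G6pdx 1.68-fold, Slc31a1 rose 1.29-fold, and Chac1 fell by 1.11 in log2 (0.0115, 0.0408, 0.0478 and 0.0352 as edgeR adjusted p). With Ptpn6 deleted in double KO, Ggt1 was at 18.7, 19.4 and 46.0 CPM against 21.8 and 21.7 CPM, and in Ripk3 KO at 23.7, 172 and 68.8 CPM against 15.4, 21.9 and 21.3 CPM. G6pdx was at 479, 1505 and 892 CPM in Ripk3 KO Ptpn6 cKO, 1 of them below all 3 Ripk3 KO libraries (590 to 646 CPM), and at 531, 670 and 953 CPM against 678 and 491 CPM in double KO. With the red cell precursor covariate none of the 5 passed (edgeR adjusted p = 0.0834 to 0.193). That fit called 26 of all 16206 genes in the average, against 251 without the covariate. Txnip, the inhibitor of thioredoxin, fell by 0.34 on the log2 scale (edgeR adjusted p = 0.0328). In Ripk3 KO, Txnip stood at 1152 to 1382 CPM, above every wild-type library, and was not called against wild type. Against the same wild type, Txnip rose in Mlkl KO, from 882 to 977 CPM to 1220 to 1666 CPM (log2 change 0.64 with SE 0.12, edgeR adjusted p = 0.0163). It also rose in double KO, to 1379 and 1534 CPM (log2 change 0.63 with SE 0.14, edgeR adjusted p = 0.0302). Each is 1 of 73 (1.37%), against 1.16% and 1.04% of all genes. The marker lists given above for these comparisons moved with them, and Txnip did not pass in Mlkl KO with the cell cycle covariate (edgeR adjusted p = 0.154) or in double KO with that of red cell precursors (edgeR adjusted p = 0.0581). Over all genes those 2 fits called 27 and 114, against 188 and 169 without a covariate. With each library left out in turn, the Mlkl KO call for Txnip held in 1 of 6 fits and the double KO call in 0 of 5. The average Ptpn6 effect held in 14 of 16 such fits for Ggt1, 7 for Chac1, 6 each for Txnip and Slc31a1, and 3 for G6pdx. Over all 9 groups, Ggt1 (edgeR adjusted p = 0.0161) and Slc31a1 (0.0467) were the 2 of 73 called (2.74%, against 1.58% of all genes).

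Near-identical sequence could affect the counting of 3 members. Prdx1 shares 597 bases with each of 2 predicted genes and Sod1 298 bases with 1, at 97.5% to 98.3% identity, and none of these 3 had a row in the table. Prdx5 shares 232 identical bases with its neighbour Trmt112, which had 598 to 1192 counts per library against at least 13712 for Prdx5.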

How the data were processed

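Bulk messenger RNA libraries of mouse bone marrow neutrophils were analysed from a table that the authors deposited, which holds estimated counts per gene, not scaled to depth or length. Salmon 0.14.1, DESeq2 and GRCm38.p6 are named per the submitters' processing notes. How transcripts were summed to genes, and with which annotation, is not given in the sources used here. The counts were rounded to whole numbers. The 23 libraries of 9 groups entered 1 edgeR 4.0.16 fit (R 4.3.3) with TMM scaling, after filterByExpr at a minimum count of 10 and a minimum total of 15. Each of 12 comparisons used the quasi-likelihood F test (14 residual degrees of freedom) and Benjamini-Hochberg adjustment over all 16206 genes, with a call below 0.05. CPM used effective library sizes over all 25 libraries, and log2 CPM a prior count of 2. Exon lengths and gene positions came from GENCODE M21 and near-identical transcripts from BLAST 2.17.0. Every member was named, as were called genes of the redox lists. The members and lists were chosen with earlier results of these data known. Alternatives were DESeq2 size factors in edgeR, no low-count filter, DESeq2 1.42.0, a fit of the compared libraries alone, a replicate block, omission of each library in turn and covariates of marker levels. The fit was tested on simulated data. Figures used matplotlib 3.10.9.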

Additional observations from a re-analysis of the deposited data

How the results depend on the processing

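Of 2130 values of the 10 genes under alternatives, 156 changed sign, 123 of them by less than their standard error, and 0 of the 156 passed the test before or after. With Ptpn6 deletion in Mlkl KO, the count of 2 called genes fell to 1 with a replicate block, to 0 with the neutrophil marker or the B cell marker covariate, and to 0 (lowest and highest) when each of the 5 libraries was left out. It was 2 in the other alternatives run there. Over all 16206 genes, 332 were called with the block, 2 with the neutrophil and 239 with the B cell covariate, against 244 in the main fit. The average Ptpn6 effect, with 0 called, had 1 with a replicate block, 1 with the cell cycle covariate, 2 by DESeq2 and 0 to 2 with a library left out. The test of any difference among 9 groups, with 0 called, had 1 without the low-count filter, 1 with a replicate block, 1 with the cell cycle covariate, 3 by DESeq2 and 0 to 3 with a library left out. For the average effect, the main fit called 251 of all 16206 genes. There were 336 with the block, 500 with the cell cycle covariate and 669 of 15259 by DESeq2. For the 9 groups, the 256 genes of the main fit became 709 of 26930 without the filter and 304 with the block. They became 458 with the cell cycle covariate and 2677 of 13376 by DESeq2. The cause of these changes was not tested. The number of libraries, 2 or 3 a group, limits the precision, and Srxn1 also rests on few counts.

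The replicate numbers were not taken to pair libraries. Deviations from group means correlated above 0.1 for every shared number in 0 of the comparisons with 3. With 2 shared numbers they did so for Casp8 deletion in Mlkl KO Ptpn6 cKO (0.149) and for double KO against wild type (0.174 and 0.196), where double KO is Ripk3-/- Mlkl-/-. The Casp8 comparison has 2 libraries in each group, so its 2 correlations are equal by construction and count as 1. Under the replicate block, Txnrd1 had a log2 change of 0.65 with Ptpn6 deletion in Mlkl KO (edgeR adjusted p = 0.0592) and Gclm of 1.24 (edgeR adjusted p = 0.0185). The replicate block also moved Prdx5 to -0.011 for double KO against wild type, Cat to 0.0064 for Ptpn6 deletion in Mlkl KO, Prdx5 to 0.070 for Ptpn6 deletion in double KO and Nfe2l2 to 0.0066 for the average Ptpn6 effect, all on the log2 scale.

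The other log2 changes that took the opposite sign, none of which passed a test, were these. A covariate of B cell marker level changed the following signs. Cat was at 0.10 for Mlkl KO against wild type, 0.26 for Ptpn6 deletion in Mlkl KO and 0.021 for Casp8 deletion in double KO Ptpn6 cKO. Prdx5 was at -0.0062 for double KO against wild type and 0.082 for Ptpn6 deletion in double KO. Nfe2l2 was at -0.084 for Ptpn6 deletion in Ripk3 KO, -0.11 for Ptpn6 deletion in Mlkl KO, -0.082 for Casp8 deletion in double KO Ptpn6 cKO and -0.063 for the difference between Casp8 effects. Prdx1 was at 0.18 for Ptpn6 deletion in Mlkl KO, 0.24 for Casp8 deletion in double KO Ptpn6 cKO and 0.055 for the difference between Casp8 effects. Sod2 was at -0.011 for Ptpn6 deletion in double KO and 0.015 for the difference between Casp8 effects. Srxn1 was at -0.043 for the average Ptpn6 effect. Sod1 was at 0.050 for Casp8 deletion in double KO Ptpn6 cKO. Gpx1 was at -0.057 for the difference between Casp8 effects. Next is the neutrophil marker covariate. Prdx1 was at 0.00011 for Ripk3 KO against wild type, 0.36 for Ptpn6 deletion in Mlkl KO and 0.092 for Casp8 deletion in double KO Ptpn6 cKO. Gclm was at -0.018 for Ripk3 KO against wild type. Cat was at 0.50 for Ptpn6 deletion in Mlkl KO. Gpx1 was at -0.058 for Ptpn6 deletion in Mlkl KO, -0.034 for the average Ptpn6 effect and -0.049 for the difference between Casp8 effects. Srxn1 was at -0.16 for Ptpn6 deletion in Mlkl KO and -0.11 for the average Ptpn6 effect. Nfe2l2 was at -0.27 for Ptpn6 deletion in Mlkl KO, -0.050 for Casp8 deletion in double KO Ptpn6 cKO and -0.050 for the difference between Casp8 effects. Values with the covariate of red cell precursor markers follow. Sod1 was at -0.0057 for double KO against wild type, 0.26 for Ptpn6 deletion in double KO and 0.062 for Casp8 deletion in double KO Ptpn6 cKO. Cat was at -0.026 for double KO against wild type, 0.10 for Ptpn6 deletion in double KO, 0.044 for Casp8 deletion in Mlkl KO Ptpn6 cKO and -0.078 for the difference between Casp8 effects. Txnrd1 was at 0.10 for double KO against wild type and -0.0048 for Casp8 deletion in double KO Ptpn6 cKO. Nfe2l2 was at -0.093 for Ptpn6 deletion in Ripk3 KO and -0.049 for Casp8 deletion in double KO Ptpn6 cKO. Srxn1 was at -0.0044 for the average Ptpn6 effect. Sod2 was at 0.059 for Casp8 deletion in Mlkl KO Ptpn6 cKO. Prdx5 was at -0.11 for Casp8 deletion in Mlkl KO Ptpn6 cKO. Prdx1 was at 0.046 for Casp8 deletion in double KO Ptpn6 cKO. Cell cycle level as a covariate changed these. Prdx1 was at 0.22 for Ripk3 KO against wild type, 0.28 for Mlkl KO against wild type, 0.063 for double KO against wild type, -0.14 for Ptpn6 deletion in Ripk3 KO, -0.039 for Ptpn6 deletion in double KO, -0.15 for the average Ptpn6 effect, 0.045 for Casp8 deletion in double KO Ptpn6 cKO and 0.039 for the difference between Casp8 effects. Prdx5 was at -0.054 for Ripk3 KO against wild type, -0.12 for Mlkl KO against wild type, -0.086 for double KO against wild type and 0.077 for Ptpn6 deletion in double KO. Gclm was at -0.16 for Ripk3 KO against wild type and -0.20 for Mlkl KO against wild type. Nfe2l2 was at -0.0066 for Ripk3 KO against wild type, -0.066 for Mlkl KO against wild type, -0.044 for double KO against wild type, 0.0082 for Ptpn6 deletion in double KO, 0.085 for the average Ptpn6 effect, 0.078 for Casp8 deletion in Mlkl KO Ptpn6 cKO and -0.070 for the difference between Casp8 effects. Cat was at 0.20 for Mlkl KO against wild type. Txnrd1 was at 0.0026 for double KO against wild type. Sod2 was at -0.022 for Ptpn6 deletion in double KO and 0.023 for the difference between Casp8 effects. Gpx1 was at -0.066 for the difference between Casp8 effects. DESeq2 size factors in edgeR put Txnrd1 at 0.0084 for double KO against wild type and Cat at 0.016 for Ptpn6 deletion in Mlkl KO. DESeq2 tests put Txnrd1 at 0.0081 for double KO against wild type and Cat at 0.016 for Ptpn6 deletion in Mlkl KO. A fit of the compared libraries alone put Gclm at -0.0035 for Ripk3 KO against wild type and Prdx5 at 0.010 for Ptpn6 deletion in double KO.

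With a single library left out in turn, log2 changes that crossed 0 had these ranges. Prdx1 ran from -0.18 to 0.020 for Ripk3 KO against wild type, from -0.16 to 0.34 for Ptpn6 deletion in Ripk3 KO, from -0.39 to 0.073 for Ptpn6 deletion in Mlkl KO, from -0.0083 to 0.18 for the average Ptpn6 effect, from -0.0030 to 0.46 for Casp8 deletion in Mlkl KO Ptpn6 cKO and from -0.40 to 0.058 for Casp8 deletion in double KO Ptpn6 cKO. Prdx5 ran from -0.013 to 0.12 for Ripk3 KO against wild type, from -0.11 to 0.24 for double KO against wild type, from -0.028 to 0.40 for Ptpn6 deletion in Ripk3 KO, from -0.24 to 0.18 for Ptpn6 deletion in double KO and from -0.025 to 0.23 for Casp8 deletion in Mlkl KO Ptpn6 cKO. Gclm ran from -0.10 to 0.14 for Ripk3 KO against wild type. Txnrd1 ran from -0.013 to 0.18 for Mlkl KO against wild type, from -0.31 to 0.22 for double KO against wild type, from -0.030 to 0.27 for Ptpn6 deletion in Ripk3 KO, from -0.052 to 0.48 for Ptpn6 deletion in double KO and from -0.013 to 0.19 for Casp8 deletion in double KO Ptpn6 cKO. Cat ran from -0.12 to 0.54 for double KO against wild type, from -0.084 to 0.081 for Ptpn6 deletion in Mlkl KO, from -0.54 to 0.12 for Ptpn6 deletion in double KO and from -0.12 to 0.31 for the difference between Casp8 effects. Sod1 ran from -0.29 to 0.074 for Ptpn6 deletion in Ripk3 KO, from -0.23 to 0.16 for Ptpn6 deletion in double KO, from -0.092 to 0.32 for Casp8 deletion in Mlkl KO Ptpn6 cKO and from -0.28 to 0.12 for Casp8 deletion in double KO Ptpn6 cKO. Gpx1 ran from -0.016 to 0.26 for Ptpn6 deletion in Ripk3 KO, from -0.26 to 0.025 for Ptpn6 deletion in double KO, from -0.061 to 0.28 for Casp8 deletion in Mlkl KO Ptpn6 cKO and from -0.11 to 0.23 for the difference between Casp8 effects. Nfe2l2 ran from -0.17 to 0.10 for Ptpn6 deletion in Ripk3 KO, from -0.071 to 0.21 for Ptpn6 deletion in Mlkl KO, from -0.30 to 0.040 for Ptpn6 deletion in double KO, from -0.079 to 0.041 for the average Ptpn6 effect, from -0.25 to 0.16 for Casp8 deletion in Mlkl KO Ptpn6 cKO, from -0.082 to 0.25 for Casp8 deletion in double KO Ptpn6 cKO and from -0.12 to 0.29 for the difference between Casp8 effects. Sod2 ran from -0.056 to 0.14 for Ptpn6 deletion in double KO, from -0.29 to 0.091 for Casp8 deletion in Mlkl KO Ptpn6 cKO and from -0.25 to 0.14 for the difference between Casp8 effects. Srxn1 ran from -0.085 to 0.19 for the average Ptpn6 effect.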

Other observations

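The library whose title and genotype label disagree was placed in no group. Its title names the double KO and its genotype label Mlkl KO Ptpn6 cKO, and it held Ripk3 at 0.088 CPM, Mlkl at 0.75 CPM and Ptpn6 at 582 CPM. In the assigned libraries Ptpn6 stood at 490 to 707 CPM where intact and at 120 to 314 CPM where deleted. Ripk3 stood at 2.51 to 10.5 CPM where intact and at 0 to 0.154 CPM where knocked out. The conflicting library thus had Ripk3 in the knockout range and Ptpn6 in the intact range, as its title names. Both lay outside the ranges of Mlkl KO Ptpn6 cKO (2.91 to 4.52 and 182 to 193 CPM). It held Gclm at 48.6 CPM, Txnrd1 at 41.0 CPM, Prdx5 at 766 CPM, Gpx1 at 788 CPM and Srxn1 at 4.74 CPM. Nfe2l2 was at 238 CPM, Cat at 45.5 CPM, Prdx1 at 23.9 CPM, Sod1 at 29.8 CPM and Sod2 at 20.5 CPM. Of the 24 assigned libraries, 11 were above it for Gclm, 19 for Txnrd1 and 13 for Prdx5.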
